A study of Mus musculus with 92 samples.

Results

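The 40 genes described here code for translation initiation factors, and they were followed in mouse embryonic stem cells (mESCs) from which the transcription factor GABPA, or its partners GABPB1 and GABPB2, had been depleted. The genes were chosen by symbol. The rule spells out 41 symbols of the eIF1 to eIF5 families, of which 40 were found among the 56953 gene IDs of the deposited tables and 1, Eif3j, was not matched. Eif3j1 and Eif3j2 are in the tables under those symbols and are counted below among other initiation factors. The rule itself uses no measured value, but it was drawn up with earlier results of these data known. RefSeq annotates all 40 as protein coding. The cells were B6 mESCs grown with LIF, PD0325901 and CHIR99021, in 3 lines whose genotypes are given as Gabpa dTAG/dTAG, Gabpb1 dTAG/dTAG and Gabpb1/b2 dTAG/dTAG, called here the GABPA, GABPB1 and GABPB1/GABPB2 lines. A dTAG is a degron fused to the protein: the small molecule dTAG-13 brings the tagged protein to a ubiquitin ligase, so that it is destroyed within hours. RNA-seq of polyA RNA was made after 12 h with 500 nM dTAG-13 or with DMSO, with 2 libraries in each of 6 groups. SLAM-seq, in which 4-thiouridine enters RNA made during labelling and is read as T-to-C conversions, was made in the GABPA line after 1, 2, 4 and 12 h of 500 nM dTAG-13 and after DMSO, with 2 libraries in each of 7 groups. The 2 h and 4 h treatments share 1 DMSO group, titled 2-4h and labelled as 2 h of DMSO. Every group carries the tag, controls included, no untagged cells are among these libraries, and the labels name no number of clones behind each line.

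Translation initiation brings the initiator tRNA, the small ribosomal subunit and an mRNA together at the start codon. The eIF2 complex carries the initiator tRNA while bound to GTP, and eIF2B, a guanine nucleotide exchange factor, recharges eIF2 after each round. The large eIF3 complex is the scaffold on the small subunit, eIF1, eIF1A and eIF5 govern scanning and start codon choice, eIF5B joins the large subunit, and the eIF4 proteins bind the mRNA cap, unwind the leader and recruit the ribosome. Embryonic stem cells are known for a modest rate of protein synthesis that rises when they differentiate. GABPA is an ETS family protein that binds DNA at sites with the letters CCGGAAG, and GABPB1 and GABPB2 are partners that bind GABPA and carry an activation domain.

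Promoter sequences are printed first because they show how those letters lie near the start sites of the genes described below. RefSeq windows of 300 bases, from 250 before to 50 after a start site (GRCm38.p6), were matched by symbol for 33 of the 40 genes; Eif1a, Eif2b3, Eif3e, Eif3h, Eif3i, Eif4e3 and Eif4g2 had none. The letters CCGGAAG, searched on both strands, were in a window of 12 of the 33 genes (36.4%), against 9.93% of 27025 genes and 8.86% of 32851 windows of the same length. Those genes and windows were taken whether or not the gene was tested here, so they are not matched to the members by level. The longer CCGGAAGT, which contains CCGGAAG, was in 6 of the 33 (18.2%) against 4.31% of all genes, and the E-box CACGTG, which is not contained in them, in 9 of the 33 (27.3%) against 8.09%. The stretches below run 5′ to 3′ in the gene's own direction from 100 bases before to 25 bases from the start site on, which is base 101; capitals mark CCGGAAG or, on the other strand, CTTCCGG.
Eif2b2 (chr12:85219381-85219505, + strand): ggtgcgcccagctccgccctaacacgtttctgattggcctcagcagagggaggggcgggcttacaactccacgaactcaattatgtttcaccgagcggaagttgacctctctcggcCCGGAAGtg
Eif3c (chr7:126566342-126566466, - strand): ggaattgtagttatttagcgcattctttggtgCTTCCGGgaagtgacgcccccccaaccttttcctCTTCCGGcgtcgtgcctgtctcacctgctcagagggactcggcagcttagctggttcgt
Eif3g (chr9:20898566-20898690, - strand): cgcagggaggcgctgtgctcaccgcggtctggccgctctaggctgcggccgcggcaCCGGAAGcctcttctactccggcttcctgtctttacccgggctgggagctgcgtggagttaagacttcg
Eif3l (chr15:79075123-79075247, + strand): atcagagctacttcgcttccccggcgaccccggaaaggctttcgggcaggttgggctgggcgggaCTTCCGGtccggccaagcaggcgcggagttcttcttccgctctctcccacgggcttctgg
Eif3m (chr2:105017003-105017127, - strand): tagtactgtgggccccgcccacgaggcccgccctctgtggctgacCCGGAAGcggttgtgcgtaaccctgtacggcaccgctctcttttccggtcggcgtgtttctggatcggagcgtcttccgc
Eif4e2 (chr1:87213811-87213935, + strand): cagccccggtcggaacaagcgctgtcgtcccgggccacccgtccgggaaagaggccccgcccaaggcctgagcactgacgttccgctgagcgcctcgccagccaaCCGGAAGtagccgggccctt
Eif3d (chr15:77970800-77970924, - strand): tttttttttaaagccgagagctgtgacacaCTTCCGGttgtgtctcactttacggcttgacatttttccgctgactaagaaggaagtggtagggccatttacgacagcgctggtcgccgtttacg
The first 6 genes lost RNA in the GABPA line, and Eif3d is shown as a gene with the same letters whose RNA-seq level was not called there. In Eif3c the letters stood at 2 places on the opposite strand, 68 and 34 bases upstream of the start site. They began 44 bases upstream in Eif3g, 35 in Eif3l, 55 in Eif3m and 70 in Eif3d, and 16 bases downstream in Eif2b2 and 5 in the Eif4e2 window shown. Of the 14 genes with a window that fell in RNA-seq of the GABPA line 9 held CCGGAAG: these 6, Eif1ad, Eif1ax and Eif1b. Of the 15 that were not called 3 held it (Eif2b4, Eif3d and Eif5a), and of the 4 that rose 0 held it. The longer CCGGAAGT was in 3 of the 14 that fell, 3 of the 15 not called and 0 of the 4 that rose, and CACGTG in 2 of the 14, 6 of the 15 and 1 of the 4. These are matches of letters, not measured binding, and chromatin libraries of the series were not analysed here.

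RNA-seq libraries held 15957952 to 32091571 counts, and SLAM-seq libraries 936622 to 4248509 reads with conversions among 11477034 to 30690961 reads, so the newly made RNA is the less precise measure. The 8 stem cell markers were found in each RNA-seq library, with a summed level of 5039 to 7199 CPM (counts per 1e6, scaled by TMM). The summed level of 8 feeder fibroblast markers was 6.11 to 13.5 CPM with 2 to 4 of them at 0. That of 8 lineage markers was 66.2 and 63.8 CPM in the GABPA line with DMSO against 41.4 and 40.6 CPM with dTAG-13, and its part in the results was not tested. The degron removes protein, so RNA of the tagged genes does not check it: Gabpa RNA rose by 0.50 ± 0.077 (SE, adjusted p = 4.34e-05) on the log2 scale in the GABPA line. With DMSO it stood at 46.6 and 43.9 CPM of the unscaled library total there, against 142 to 166 in the other lines. Gabpb1 and Gabpb2 RNA rose by 1.62 and 0.85 on the log2 scale in the GABPA line. In the GABPB1 line Gabpb1 RNA rose by 0.74. In the GABPB1/GABPB2 line Gabpb1 and Gabpb2 RNA rose by 0.92 and 0.37. These libraries do not measure protein, so how far it was depleted in each line is not known here.

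The 40 genes covered a wide range of abundance. By the deposited TPM, which corrects for length, Eif5a stood highest in the GABPA line with DMSO at 2383 and 2377 TPM, before Eif4a1 at 1944 and 1922 TPM and Eif3k at 748 and 785 TPM. The lowest were Eif1b at 21.8 and 22.3 TPM, Eif4g3 at 20.03 and 20.88 TPM, and Eif4e3, nearly absent at 0.50 and 0.28 TPM. The eIF3 subunit genes spanned 168 TPM, the lower of both Eif3f libraries, to the 785 TPM of Eif3k, although the subunits sit in 1 complex.

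In RNA-seq of the GABPA line, 12 h of dTAG-13 lowered 18 of the 40 genes and raised 4, and 18 were not called. With a minimum average level of 3 log2 CPM, 7 rose in place of 4. Over all 16396 genes tested, 21.9% fell and 24.6% rose, by the quasi-likelihood test of edgeR, adjusted by Benjamini-Hochberg, at an adjusted p under 0.05, which is the rule for every call below. The median log2 change of the 40 genes was -0.12 against 0.06 over all genes, and 8 of them fell beyond 2-fold against 7.81% of all genes. Of the 12 eIF3 genes 7 fell, of the 5 eIF2B genes 3, of the 7 genes for scanning and start codon choice 5, of the 4 genes tied to tRNA delivery 1 and of the 11 eIF4 genes 2; Eif5a was not called. By average level, 10 of the 16 members at 6 to 8 log2 CPM fell against 29.3% of all genes there, and 4 of the 19 above 8 log2 CPM against 21.4%. Among the genes that fell, Eif1ad, Eif1b, Eif2d and Eif3m overlap a gene on the other strand, as do Eif4a2 and Eif4g3 among those that rose, and with the strand setting not given in the sources used here, the reads of such partners cannot be separated. In bulk RNA a smaller share of cells with a transcript and less of it per cell cannot be told apart.

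**Figure D1:**
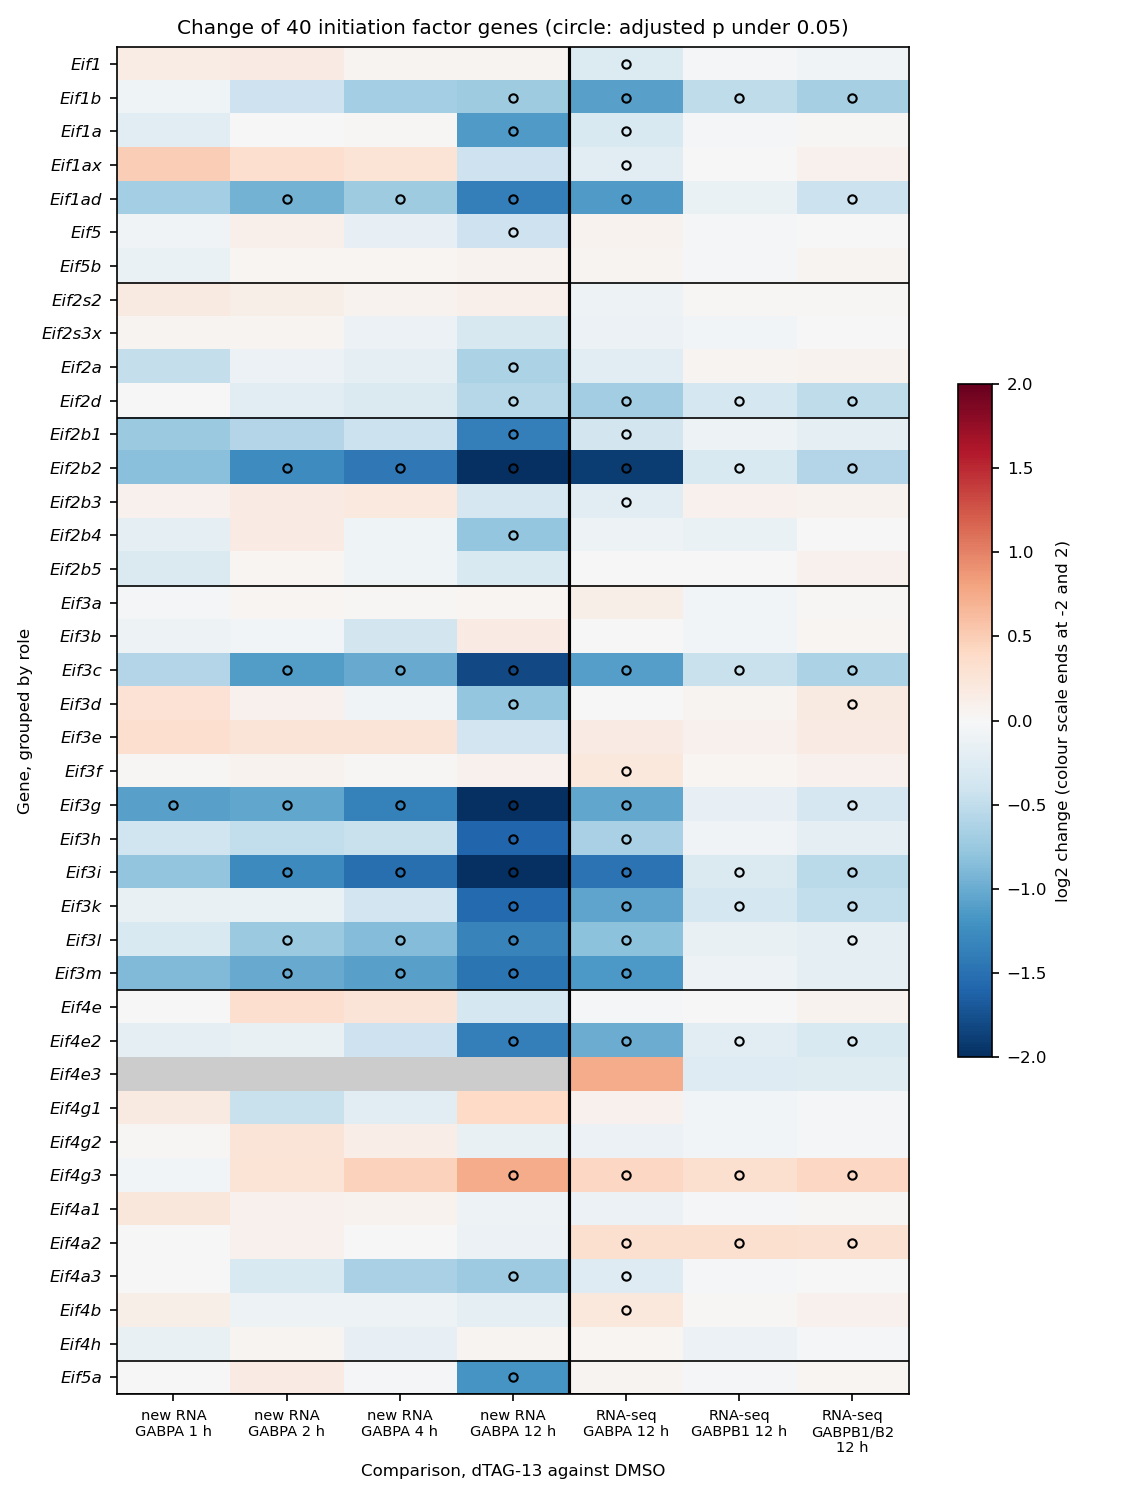
Log2 change of the 40 genes (rows, grouped by role) in 4 SLAM-seq and 3 RNA-seq comparisons of dTAG-13 with DMSO (columns); blue is lower, red is higher, grey was not tested, and a circle marks an adjusted p under 0.05. The eIF3 block is mostly blue from Eif3g to Eif3m in the GABPA columns, and the circles grow from 1 at 1 h to 21 at 12 h of new RNA.

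The eIF3 genes split into a group that fell and a group that did not. Eif3i, which codes for a WD-repeat subunit bound to Eif3b and Eif3g (chr4:129485753-129494441, - strand, ENSMUSG00000028798.17 in mm39), stood at 255 and 268 CPM with DMSO and 88.9 and 98.6 CPM with dTAG-13, and it fell by 1.48 ± 0.065 (SE, adjusted p = 9.26e-12) on the log2 scale. Eif3m, a subunit of the scaffold's PCI-domain core, stood at 193 and 187 CPM with DMSO and 78.5 and 92.2 CPM with dTAG-13, a change of -1.15 ± 0.074 (SE, adjusted p = 1.25e-09). Eif3c, the large core subunit that contacts eIF1 and eIF5, stood at 600.2 and 597 CPM with DMSO and 276 and 281 CPM with dTAG-13, a change of -1.10 ± 0.053 (SE, adjusted p = 3.08e-11). In these genes the dTAG-13 libraries lay below 50% of the DMSO libraries and the groups did not overlap. Here and below, the share of all genes whose groups did not overlap was not counted. Eif3k, a small peripheral subunit, stood at 305 and 321 CPM with DMSO and 149.9 and 150.4 CPM with dTAG-13, a change of -1.06 ± 0.056 (SE, adjusted p = 9.13e-11). Eif3g, an RNA-binding subunit of the module around Eif3b, stood at 261 and 265 CPM with DMSO and 128 and 129 CPM with dTAG-13, a change of -1.03 ± 0.088 (SE, adjusted p = 4.34e-08). Eif3l, the partner of Eif3k, stood at 520.5 and 510.2 CPM with DMSO and 296 and 289.7 CPM with dTAG-13, a change of -0.82 ± 0.057 (SE, adjusted p = 3.76e-09). Again no dTAG-13 library reached a DMSO library, and replicates of Eif3k and Eif3g differed by about 1 CPM or less after dTAG-13. Eif3h, an MPN-domain subunit, had the smallest fall of the 7, from 300 and 298 CPM to 184 and 197 CPM, a change of -0.65 ± 0.056 (SE, adjusted p = 4.78e-08).

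Of the other 5 eIF3 genes 1 rose and 4 were not called. Eif3a and Eif3b, the subunits around which the complex is built, changed by 0.12 ± 0.052 (SE, adjusted p = 0.0701) and 0.0086 ± 0.052 (SE, adjusted p = 0.914), and Eif3d, a cap-binding subunit, by 0.011 ± 0.054 (SE, adjusted p = 0.889). Eif3e, a PCI-domain subunit, changed by 0.16 ± 0.084 (SE, adjusted p = 0.126), with overlapping groups. Eif3f, the MPN-domain partner of Eif3h, rose from 297 and 329 CPM to 369.8 and 352 CPM, by 0.20 ± 0.059 (SE, adjusted p = 0.00852); Eif3f was not called without DMSO replicate 1 (adjusted p of 0.146) or dTAG-13 replicate 1 (0.0667) and with only the libraries of the comparison (0.0717). Eif3h and Eif3f, which sit together as a pair of MPN-domain subunits, thus had calls in opposite directions. The calls of the 7 eIF3 genes that fell were kept under each of the 8 alternative settings, without any single library.

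**Figure D2:**
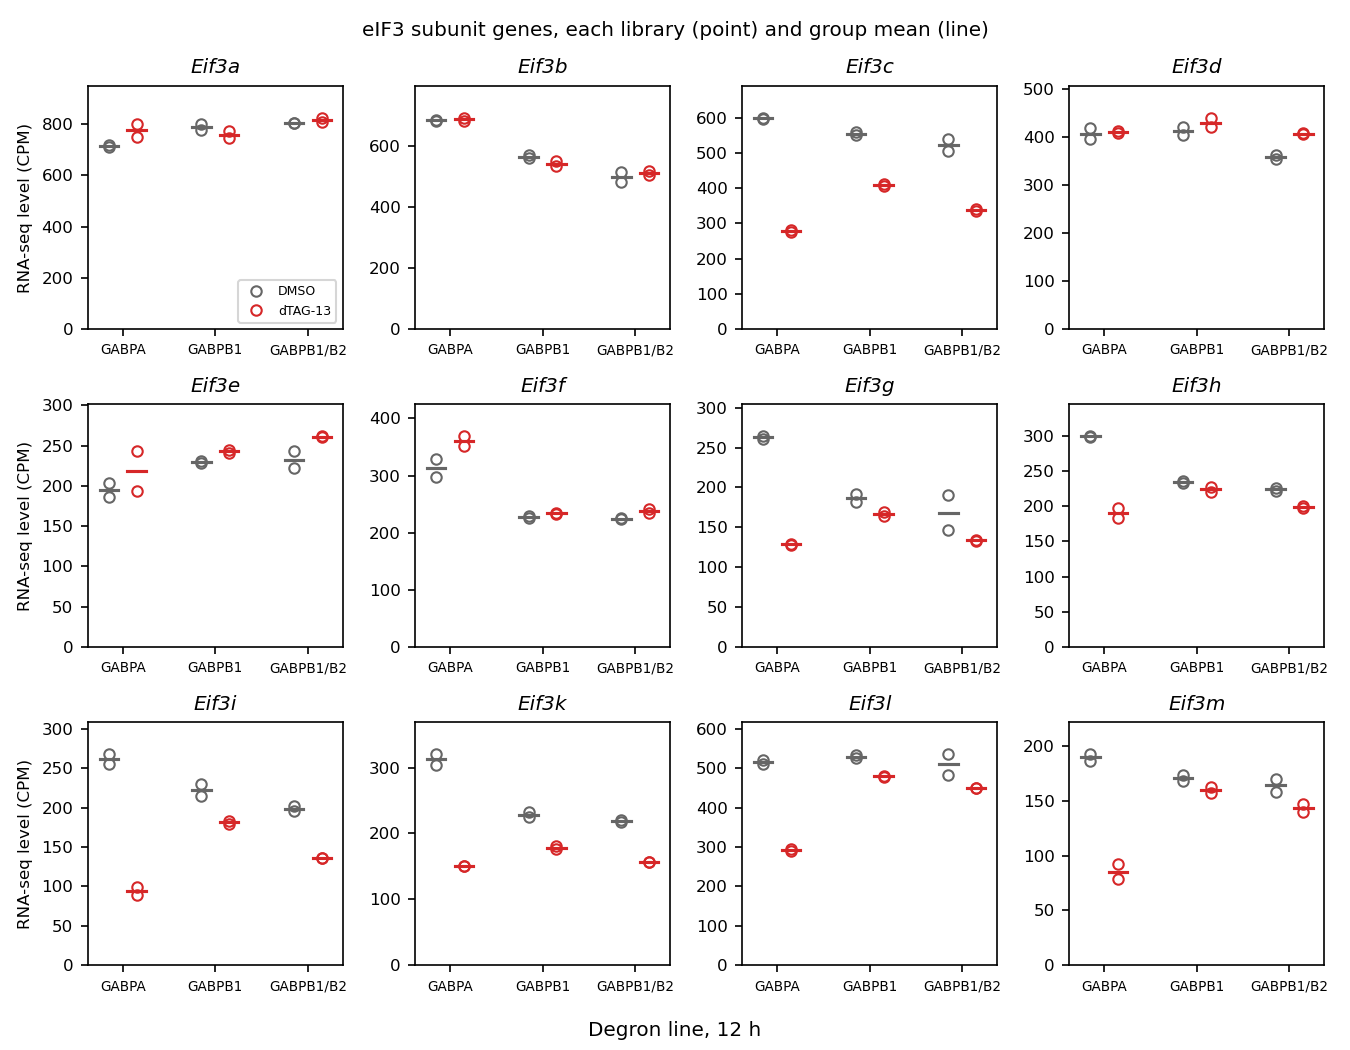
RNA-seq level in CPM of the 12 eIF3 subunit genes in the 3 degron lines; each point is a library, grey for DMSO and red for dTAG-13, and a short line is the group mean of 2. In the GABPA line Eif3c, Eif3g, Eif3h, Eif3i, Eif3k, Eif3l and Eif3m drop clear of their DMSO points, while Eif3a, Eif3b, Eif3d and Eif3e were not called.

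Of the eIF2B exchange factor, the gene for the β subunit fell most of all 40 genes. Eif2b2 (chr12:85266255-85273402, + strand, ENSMUSG00000004788.12 in mm39) stood at 92.7 and 91.9 CPM with DMSO and 25.2 and 24.4 CPM with dTAG-13, 26.9% of the control, a change of -1.90 ± 0.079 (SE, adjusted p = 5.45e-12) on the log2 scale. Its partners moved less. Eif2b1, the α subunit, went from 102 and 97.7 CPM to 77.5 and 77.8 CPM, by -0.36 ± 0.073 (SE, adjusted p = 0.00062), and Eif2b3, the γ subunit, from 51.1 and 49.7 CPM to 41.5 and 45.8 CPM, by -0.21 ± 0.082 (SE, adjusted p = 0.0476). Eif2b5, which holds the catalytic ε subunit, stood at 336 and 342 CPM with DMSO and 331 and 345 CPM with dTAG-13, with overlapping groups and a change of -0.0041 ± 0.053 (SE, adjusted p = 0.96); Eif2b4, the δ subunit, changed by -0.10 ± 0.070 (SE, adjusted p = 0.242). The small fall of Eif2b3 was not called without DMSO replicate 1 (adjusted p of 0.16), DMSO replicate 2 (0.0974) or dTAG-13 replicate 1 (0.28), nor with DESeq2 (0.0773), a minimum average level of 3 log2 CPM (0.121) or the replicate block (0.0535).

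Among the genes for scanning and start codon choice, Eif1ad and Eif1b had larger falls than Eif1, Eif1a and Eif1ax. Differences between genes were not tested. Eif1ad, which codes for an eIF1A-like protein of ribosomal subunit maturation, stood at 108 and 102 CPM with DMSO and 47.6 and 48.0 CPM with dTAG-13, a change of -1.13 ± 0.076 (SE, adjusted p = 2.23e-09) on the log2 scale. Eif1b, a close relative of Eif1 at a low level, stood at 13.3 and 13.7 CPM with DMSO and 6.504 and 6.19 CPM with dTAG-13, a change of -1.09 ± 0.13 (SE, adjusted p = 2.35e-06). Eif1 itself, the guard of start codon fidelity, stood at 341 and 331 CPM with DMSO and 263 and 291 CPM with dTAG-13, a change of -0.28 ± 0.061 (SE, adjusted p = 0.0013). The libraries of all 3 genes did not overlap between treatments, with the smallest relative gap in Eif1. Eif1a went from 232 and 206 CPM to 167 and 187 CPM, by -0.31 ± 0.086 (SE, adjusted p = 0.00663), and Eif1ax, its X-linked relative, from 169.9 and 166 CPM to 133 and 157 CPM, by -0.21 ± 0.076 (SE, adjusted p = 0.0284). Eif1a was not called without DMSO replicate 1 (adjusted p of 0.0972) or dTAG-13 replicate 1 (0.0803), and Eif1ax was not called without DMSO replicate 1 (adjusted p of 0.115), DMSO replicate 2 (0.0739) or dTAG-13 replicate 1 (0.347) or with a minimum average level of 3 log2 CPM (0.0719). Eif5, the GTPase activator of eIF2, stood at 292 and 278 CPM with DMSO and 272 and 328 CPM with dTAG-13, with overlapping groups and a change of 0.074 ± 0.082 (SE, adjusted p = 0.497), and Eif5b, which joins the subunits, changed by 0.049 ± 0.062 (SE, adjusted p = 0.551).

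Of the member genes tied to tRNA delivery, the gene that fell does not belong to the eIF2 complex. Eif2s1, the gene for the α subunit of eIF2, is not a member and fell too, as given below. Eif2d, which codes for a factor that can deliver tRNA without GTP and acts in ribosome recycling, stood at 123 and 116 CPM with DMSO and 74.2 and 73.2 CPM with dTAG-13, a change of -0.70 ± 0.062 (SE, adjusted p = 8.21e-08) on the log2 scale with no overlap. Eif2s2 and Eif2s3x, the β and γ subunits of eIF2, changed by -0.098 ± 0.078 (SE, adjusted p = 0.329) and -0.12 ± 0.070 (SE, adjusted p = 0.163). Eif2a, another factor outside the complex, changed by -0.21 ± 0.10 (SE, adjusted p = 0.0989).

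The eIF4 genes moved in both directions, and the main cap-binding factors were not called. Of the 11 genes 2 fell and 3 rose, shares near the 21.9% and 24.6% of all genes. Eif4e2, which codes for the cap-binding repressor 4EHP, stood at 216 and 212 CPM with DMSO and 106 and 109 CPM with dTAG-13, a change of -0.99 ± 0.062 (SE, adjusted p = 8.52e-10) on the log2 scale. Eif4e, the cap-binding protein that starts initiation, stood at 171 and 164 CPM with DMSO and 149 and 176 CPM with dTAG-13, with overlapping groups and a change of -0.041 ± 0.072 (SE, adjusted p = 0.677). These cap-binding proteins thus differed in their calls, a difference that was itself not tested. Eif4g1, the main scaffold, stood at 1262 and 1332 CPM with DMSO and 1359 and 1404 CPM with dTAG-13, a change of 0.091 ± 0.049 (SE, adjusted p = 0.145), and Eif4g3, its less abundant relative, at 90 and 88.8 CPM with DMSO and 121 and 116 CPM with dTAG-13, a rise of 0.41 ± 0.064 (SE, adjusted p = 5.39e-05). Eif4a1, the main helicase, stood at 2314 and 2289 CPM with DMSO and 2041 and 2195 CPM with dTAG-13, a change of -0.12 ± 0.049 (SE, adjusted p = 0.0571), and Eif4a2, its close relative, at 344 and 322 CPM with DMSO and 398 and 430.1 CPM with dTAG-13, a rise of 0.31 ± 0.060 (SE, adjusted p = 0.000356). In both pairs the minor relative rose. Eif4b, the helicase's cofactor, rose by 0.21 ± 0.049 (SE, adjusted p = 0.00214), and Eif4a3, a helicase of the exon junction complex rather than of initiation, fell by 0.27 ± 0.053 (SE, adjusted p = 0.000572). Eif4g2 and Eif4h were not called, with changes of -0.12 and 0.033, nor was Eif4e3, at 0.892 and 0.494 CPM with DMSO and 0.929 and 1.36 CPM with dTAG-13. Eif5a, the most abundant of the 40, changed by 0.059 ± 0.047 (SE, adjusted p = 0.328).

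Depletion of the GABPB partners moved fewer of the genes, and by less. In the GABPB1 line 7 of the 40 genes fell (5.46% of all genes fell) and 2 rose (1.28%). In the GABPB1/GABPB2 line 10 fell (9.26%) and 3 rose (3.53%). The median change of the 40 was -0.0571 and 0.0065 in these lines, against -0.0048 and 0.0085 over all genes. The 7 genes that fell in the GABPB1 line, Eif1b, Eif2b2, Eif2d, Eif3c, Eif3i, Eif3k and Eif4e2, were all among the 10 of the GABPB1/GABPB2 line, and those 10 were all among the 18 of the GABPA line, and the lines share no libraries. Over all genes such overlap was also common: 80.2% of the genes that fell in the GABPB1 line fell in the GABPB1/GABPB2 line, and 91.2% of those of the latter fell in the GABPA line. Eif1ad, Eif3g and Eif3l were the 3 called in the GABPB1/GABPB2 line and not in the GABPB1 line.

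Eif1b and Eif3c fell most in both GABPB lines. Eif1b stood at 10.3 and 10.9 CPM with DMSO and 6.98 and 7.80 CPM with dTAG-13 in the GABPB1 line, a change of -0.52 ± 0.11 (SE, adjusted p = 0.00972) on the log2 scale. Eif1b in the GABPB1/GABPB2 line stood at 11.7 and 10.4 CPM with DMSO and 6.83 and 7.24 CPM with dTAG-13, a change of -0.66 ± 0.12 (SE, adjusted p = 0.00153). Eif3c stood at 551 and 558 CPM with DMSO and 406 and 413 CPM with dTAG-13 in the GABPB1 line, a change of -0.44 ± 0.052 (SE, adjusted p = 5.07e-05). In the GABPB1/GABPB2 line it stood at 507 and 539 CPM with DMSO and 342 and 336 CPM with dTAG-13, a change of -0.63 ± 0.052 (SE, adjusted p = 2.34e-07). In neither gene did treated and control libraries overlap in either line. Eif2b2, the leading gene of the GABPA line, stood at 69.3 and 64.4 CPM with DMSO and 54.9 and 53.9 CPM with dTAG-13 in the GABPB1 line, a change of -0.30 ± 0.070 (SE, adjusted p = 0.015). Eif2b2 in the GABPB1/GABPB2 line stood at 59.9 and 54.7 CPM with DMSO and 36.9 and 39.7 CPM with dTAG-13, a change of -0.59 ± 0.075 (SE, adjusted p = 3.48e-05). Eif3i stood at 215 and 229.8 CPM with DMSO and 179.5 and 183 CPM with dTAG-13 in the GABPB1 line, a change of -0.30 ± 0.061 (SE, adjusted p = 0.00618). Eif3i in the GABPB1/GABPB2 line stood at 195 and 201 CPM with DMSO and 136 and 136 CPM with dTAG-13, a change of -0.55 ± 0.063 (SE, adjusted p = 1.03e-05). In both genes the groups stayed apart, with falls smaller than in the GABPA line, a difference tested below.

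Eif2d, Eif3k and Eif4e2 also fell in both lines. Eif2d stood at 115 and 118 CPM with DMSO and 92.8 and 90.6 CPM with dTAG-13 in the GABPB1 line, a change of -0.35 ± 0.059 (SE, adjusted p = 0.00133) on the log2 scale. Eif2d in the GABPB1/GABPB2 line stood at 110.2 and 108 CPM with DMSO and 77.5 and 75.2 CPM with dTAG-13, a change of -0.51 ± 0.061 (SE, adjusted p = 1.49e-05). Eif3k stood at 225 and 232 CPM with DMSO and 181 and 176 CPM with dTAG-13 in the GABPB1 line, a change of -0.36 ± 0.054 (SE, adjusted p = 0.000471). Eif3k in the GABPB1/GABPB2 line stood at 221 and 217 CPM with DMSO and 156 and 156 CPM with dTAG-13, a change of -0.49 ± 0.055 (SE, adjusted p = 8.37e-06). The treated libraries of both genes lay below all controls of their line. Eif4e2 stood at 177 and 183 CPM with DMSO and 154 and 157 CPM with dTAG-13 in the GABPB1 line, a change of -0.21 ± 0.059 (SE, adjusted p = 0.0385). Eif4e2 in the GABPB1/GABPB2 line stood at 154 and 139 CPM with DMSO and 118 and 119.9 CPM with dTAG-13, a change of -0.30 ± 0.061 (SE, adjusted p = 0.00285). Eif1ad stood at 58.8 and 64.6 CPM with DMSO and 54.1 and 58.5 CPM with dTAG-13 in the GABPB1 line, where it was not called (-0.13 ± 0.072, SE, adjusted p = 0.349). Eif1ad in the GABPB1/GABPB2 line stood at 56.9 and 55.1 CPM with DMSO and 43.2 and 39.9 CPM with dTAG-13, a change of -0.43 ± 0.077 (SE, adjusted p = 0.000938).

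The other eIF3 genes that fell in the GABPA line had smaller changes in the GABPB lines, and Eif3g and Eif3l were called in the GABPB1/GABPB2 line. Eif3g stood at 191 and 182 CPM with DMSO and 165 and 169 CPM with dTAG-13 in the GABPB1 line, a change of -0.16 ± 0.085 (SE, adjusted p = 0.319). Eif3g in the GABPB1/GABPB2 line stood at 191 and 146 CPM with DMSO and 134 and 134 CPM with dTAG-13, a change of -0.34 ± 0.087 (SE, adjusted p = 0.0156), and the controls there lay apart, with treated libraries below both. Eif3l stood at 525 and 533 CPM with DMSO and 481 and 479 CPM with dTAG-13 in the GABPB1 line, a change of -0.14 ± 0.056 (SE, adjusted p = 0.167). Eif3l in the GABPB1/GABPB2 line stood at 483 and 537 CPM with DMSO and 450.3 and 451 CPM with dTAG-13, a change of -0.18 ± 0.056 (SE, adjusted p = 0.0468). Eif3m stood at 168 and 174 CPM with DMSO and 157 and 163 CPM with dTAG-13 and then at 158 and 170.3 CPM with DMSO and 139.6 and 148 CPM with dTAG-13 in these lines, changes of -0.097 ± 0.070 (SE, adjusted p = 0.505) and -0.19 ± 0.072 (SE, adjusted p = 0.0913). Eif3h stood at 232 and 235 CPM with DMSO and 219.8 and 228 CPM with dTAG-13 and then at 222 and 226 CPM with DMSO and 198 and 200.1 CPM with dTAG-13, changes of -0.064 ± 0.055 (SE, adjusted p = 0.589) and -0.17 ± 0.055 (SE, adjusted p = 0.0514). Neither Eif3m nor Eif3h was called in a GABPB line. Eif3d rose in the GABPB1/GABPB2 line, from 361 and 353 CPM to 408 and 405 CPM, by 0.19 ± 0.054 (SE, adjusted p = 0.0313), and in the GABPB1 line changed by 0.058 ± 0.054 (SE, adjusted p = 0.624) from 421 and 404 CPM to 419 and 439.6 CPM.

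Eif4a2 and Eif4g3 were the members that rose in all 3 lines. Over all genes that rose in the GABPB1 line, 83.8% rose in the GABPA line and 50% in the GABPB1/GABPB2 line. Eif4a2 stood at 627 and 629 CPM with DMSO and 780.1 and 796 CPM with dTAG-13 in the GABPB1 line, a rise of 0.33 ± 0.059 (SE, adjusted p = 0.00221) on the log2 scale. Eif4a2 in the GABPB1/GABPB2 line stood at 671 and 714 CPM with DMSO and 830.4 and 885 CPM with dTAG-13, a rise of 0.31 ± 0.059 (SE, adjusted p = 0.00167). Eif4g3 stood at 56.0 and 58.1 CPM with DMSO and 71.4 and 70.8 CPM with dTAG-13 in the GABPB1 line, a rise of 0.32 ± 0.064 (SE, adjusted p = 0.00517). Eif4g3 in the GABPB1/GABPB2 line stood at 21.9 and 22.5 CPM with DMSO and 28.5 and 30.6 CPM with dTAG-13, a rise of 0.41 ± 0.076 (SE, adjusted p = 0.0011). The response of the GABPA line differed from that of the GABPB1 line by -0.013 ± 0.084 for Eif4a2 and 0.094 ± 0.091 for Eif4g3, and neither difference was called. Of the 6 main factors given throughout, Eif4e changed by -0.014 and 0.064 in the GABPB1 and GABPB1/GABPB2 lines, Eif4g1 by -0.059 and -0.036, and Eif4a1 by -0.020 and 0.018. Eif5 changed by -0.018 and 0.0060, Eif1 by -0.043 and -0.071, and Eif2b5 by -0.0068 and 0.080, and none of these 6 was called in a GABPB line. Eif4e stood at 136 and 144 CPM with DMSO and 138 and 139.7 CPM with dTAG-13 in the GABPB1 line and 124 and 133 CPM with DMSO and 135 and 134 CPM with dTAG-13 in the GABPB1/GABPB2 line.

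Of the 9 calls in the GABPB1 line 6 were lost under at least 1 alternative setting, against 4 of 22 in the GABPA line and 3 of 13 in the GABPB1/GABPB2 line. Leaving out any 1 of its 4 libraries left 2 to 4 members with a called fall: Eif3c and Eif3k, and the rise of Eif4a2, were kept each time. Eif2b2 was lost without any of the 4 (adjusted p of 0.0824 to 0.267), as were Eif4e2 (0.187 to 0.402) and Eif1b (0.0561 to 0.194). Eif2d was lost without DMSO replicate 2 (0.056) or dTAG-13 replicate 2 (0.0515), Eif3i without DMSO replicate 2 (0.186) or either dTAG-13 library (0.122 and 0.0721), and Eif4g3 without DMSO replicate 1 (0.0907) or either dTAG-13 library (0.064 and 0.0546). Eif1b was not called with DESeq2 (0.0618), nor Eif4e2 with DESeq2 size factors (0.0577) or library totals (0.0954). In the GABPB1/GABPB2 line Eif3d was lost without DMSO replicate 2 (0.0675) or either dTAG-13 library (0.162 and 0.143), Eif3g without DMSO replicate 1 (0.195) or either dTAG-13 library (0.107 and 0.1), and Eif3l without DMSO replicate 2 (0.221) or either dTAG-13 library (0.209 and 0.186). When only that line's libraries entered the fit, Eif3d (0.149), Eif3g (0.0728) and Eif3l (0.194) were not called either. Eif3d was also lost without the filter on low counts (0.0745), and Eif3l with DESeq2 size factors (0.0776), library totals (0.0652), DESeq2 (0.0508) or the replicate block (0.0556).

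**Figure D3:**
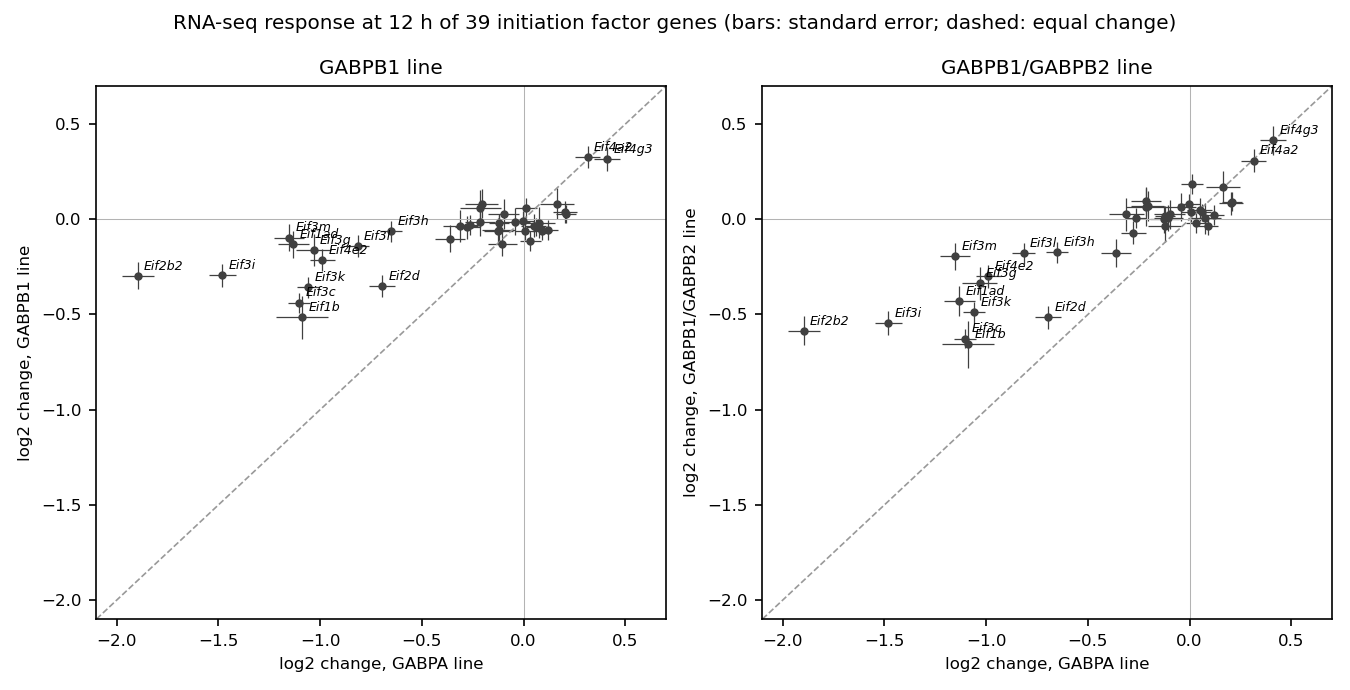
Log2 change in RNA-seq at 12 h of 39 genes in the GABPA line (x axis) against the GABPB1 line (left, y axis) and the GABPB1/GABPB2 line (right); bars are standard errors, the dashed line marks equal change, and Eif4e3 is left out for its low level. Eif2b2 and Eif3i lie at -1.90 and -1.48 on the x axis and between -0.59 and -0.30 on the y axes, while Eif4a2 and Eif4g3 lie near the dashed line.

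The response of the GABPA line was then tested directly against that of each GABPB line. It was lower than that of the GABPB1 line for 13 of the 40 genes (13.3% of all genes) and higher for 0 (12.5% of all genes), and lower than that of the GABPB1/GABPB2 line for 11 (10.7%) and higher for 0 (10.1%). At an unadjusted p under 0.05 the same comparisons gave 20 members of 5914 genes against the GABPB1 line and 17 of 5266 against the GABPB1/GABPB2 line, in either direction. DESeq2 called 0 as higher in both, while against the GABPB1 line a minimum average level of 3 log2 CPM gave 5 higher and leaving out dTAG-13 replicate 1 of the GABPA line gave 2. The largest difference from the GABPB1 line was that of Eif2b2, -1.60 ± 0.11 (SE, adjusted p = 7.42e-09) on the log2 scale, before Eif3i at -1.19 ± 0.089 (SE, adjusted p = 3.22e-08) and Eif3m at -1.06 ± 0.10 (SE, adjusted p = 6.29e-07). Against the GABPB1/GABPB2 line these were -1.31 ± 0.11 (SE, adjusted p = 2.66e-07), -0.93 ± 0.090 (SE, adjusted p = 1.22e-06) and -0.96 ± 0.10 (SE, adjusted p = 3.84e-06). All 7 eIF3 genes that fell in the GABPA line had a lower response there in both tests, with differences of -0.59 to -1.19 and of -0.48 to -0.96. Eif1b and Eif2d were lower against the GABPB1 line, by -0.57 ± 0.17 (SE, adjusted p = 0.0208) and -0.34 ± 0.086 (SE, adjusted p = 0.0063), and were not called against the GABPB1/GABPB2 line, at -0.43 ± 0.18 (SE, adjusted p = 0.106) and -0.18 ± 0.087 (SE, adjusted p = 0.165). Both tests share the GABPA libraries. The difference of Eif1b from the GABPB1 line was lost without DMSO replicate 2 (adjusted p of 0.0611) or dTAG-13 replicate 2 (0.066) of the GABPA line, without DMSO replicate 1 (0.0504) or dTAG-13 replicate 2 (0.0672) of the GABPB1 line, and with DESeq2 (0.0858). That of Eif4a3 was lost without DMSO replicate 1 (0.0611), DMSO replicate 2 (0.0624) or dTAG-13 replicate 2 (0.0707) of the GABPA line. Leaving out DMSO replicate 1 or 2 of the GABPB1/GABPB2 line raised the 11 lower genes to 17 and 18.

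Newly made RNA was followed in the GABPA line. Of the 40 genes 39 were tested, since Eif4e3 had too few converted reads. After 1 h of dTAG-13, 1 of the 39 fell (1.72% of all 15887 genes) and 0 rose (0.0567%), after 2 h 7 fell (3.21%) and 0 rose (0.145%), and after 4 h 7 fell (3.91%) and 0 rose (0.113%). At an unadjusted p under 0.05 edgeR gave 9, 10 and 14 members in either direction at these times, and with DESeq2 0 rose at each. The gene of 1 h was Eif3g. The genes of 2 h and of 4 h were the same 7, Eif1ad, Eif2b2, Eif3c, Eif3g, Eif3i, Eif3l and Eif3m, in comparisons that share their DMSO libraries. All 7 also fell in RNA-seq of the GABPA line, as did 90.6% of all genes that fell at 2 h. No gene of the 39 differed between 4 h and 2 h of dTAG-13 by edgeR's quasi-likelihood test (0% of all genes), and 0 had an unadjusted p under 0.05 with it or were called with DESeq2.

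Eif3g stood at 93.8 and 78.5 CPM with DMSO and 43.7 and 36.8 CPM with dTAG-13 after 1 h, a change of -1.09 ± 0.23 (SE, adjusted p = 0.00849) on the log2 scale. It stood at 165 and 201 CPM in the 2-4h controls against 87.1 and 91.3 CPM after 2 h and 60.2 and 81.9 CPM after 4 h. Eif3g changed by -1.04 ± 0.18 (SE, adjusted p = 0.000827) and -1.35 ± 0.19 (SE, adjusted p = 4.52e-05). The groups were apart at each time, and at 1 h the gene was not called without DMSO replicate 1 (adjusted p of 0.13), dTAG-13 replicate 1 (0.0703) or dTAG-13 replicate 2 (0.126). Eif3i stood at 85.2 and 74.0 CPM with DMSO and 47.4 and 44.1 CPM with dTAG-13 after 1 h, where its change of -0.79 ± 0.21 (SE, adjusted p = 0.0534) was not called. Against 99.7 and 110.1 CPM in the 2-4h controls it stood at 43.5 and 43.5 CPM after 2 h and 38.5 and 35.9 CPM after 4 h. Eif3i changed by -1.27 ± 0.19 (SE, adjusted p = 0.00017) and -1.5001 ± 0.20 (SE, adjusted p = 2.85e-05). Eif2b2 stood at 52.8 and 47.2 CPM with DMSO and 22.8 and 33.6 CPM with dTAG-13 after 1 h, a change of -0.83 ± 0.30 (SE, adjusted p = 0.23) that was not called. Against 63.3 and 62.7 CPM in the 2-4h controls it stood at 22.1 and 30.7 CPM after 2 h and 16.8 and 28.5 CPM after 4 h. Eif2b2 changed by -1.26 ± 0.26 (SE, adjusted p = 0.00444) and -1.437 ± 0.28 (SE, adjusted p = 0.00176). In both genes the 1 h groups did not overlap either, and how many of all genes did so was not counted. A missing call at 1 h does not by itself show that new RNA was unchanged.

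Eif3c, Eif3m, Eif3l and Eif1ad were called at both 2 h and 4 h. Eif3c stood at 127 and 137 CPM in the 2-4h controls, 55.2 and 67.1 CPM after 2 h and 56.2 and 73.2 CPM after 4 h. Eif3c changed by -1.11 ± 0.18 (SE, adjusted p = 0.000604) and -1.01 ± 0.19 (SE, adjusted p = 0.00125). Eif3m stood at 72.7 and 75.5 CPM in those controls, 41.1 and 32.1 CPM after 2 h and 27.6 and 41.0 CPM after 4 h. Eif3m changed by -1.01 ± 0.21 (SE, adjusted p = 0.00584) and -1.09 ± 0.22 (SE, adjusted p = 0.00352). Eif3l stood at 192 and 169.8 CPM in those controls, 105 and 112 CPM after 2 h and 85.9 and 110.5 CPM after 4 h. Eif3l changed by -0.74 ± 0.18 (SE, adjusted p = 0.0148) and -0.87 ± 0.18 (SE, adjusted p = 0.00374). The treated libraries of these 3 genes lay below both controls at each time. Eif1ad stood at 125 and 135 CPM in those controls, 66.8 and 67.8 CPM after 2 h and 84.9 and 74.6 CPM after 4 h. Eif1ad changed by -0.95 ± 0.17 (SE, adjusted p = 0.00112) and -0.71 ± 0.17 (SE, adjusted p = 0.0139). At 1 h their changes were -0.58 for Eif3c (99.2 and 101 CPM against 64.7 and 69.3 CPM), -0.89 for Eif3m (67.9 and 78.5 CPM against 38.2 and 41.0 CPM), -0.30 for Eif3l (128 and 102 CPM against 106 and 79.9 CPM) and -0.68 for Eif1ad (107 and 110.5 CPM against 69.2 and 66.2 CPM), and none was called. At 2 h Eif2b2 had no call without dTAG-13 replicate 1 (adjusted p of 0.112), Eif3m without dTAG-13 replicate 2 (0.115), and Eif3l without 2-4h DMSO replicate 1 (0.108), either 2 h dTAG-13 library (0.139 and 0.0724), or with only the libraries compared (0.0594). At 4 h leaving out dTAG-13 replicate 1 left 2 of the 7, Eif3g and Eif3i, with 0.0594 for Eif1ad, 0.0715 for Eif2b2, 0.0535 for Eif3c, 0.116 for Eif3l and 0.126 for Eif3m. Eif1ad was also lost without dTAG-13 replicate 2 (0.184), without 2-4h DMSO replicate 2 (0.0847) and with only the libraries compared (0.051).

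**Figure D4:**
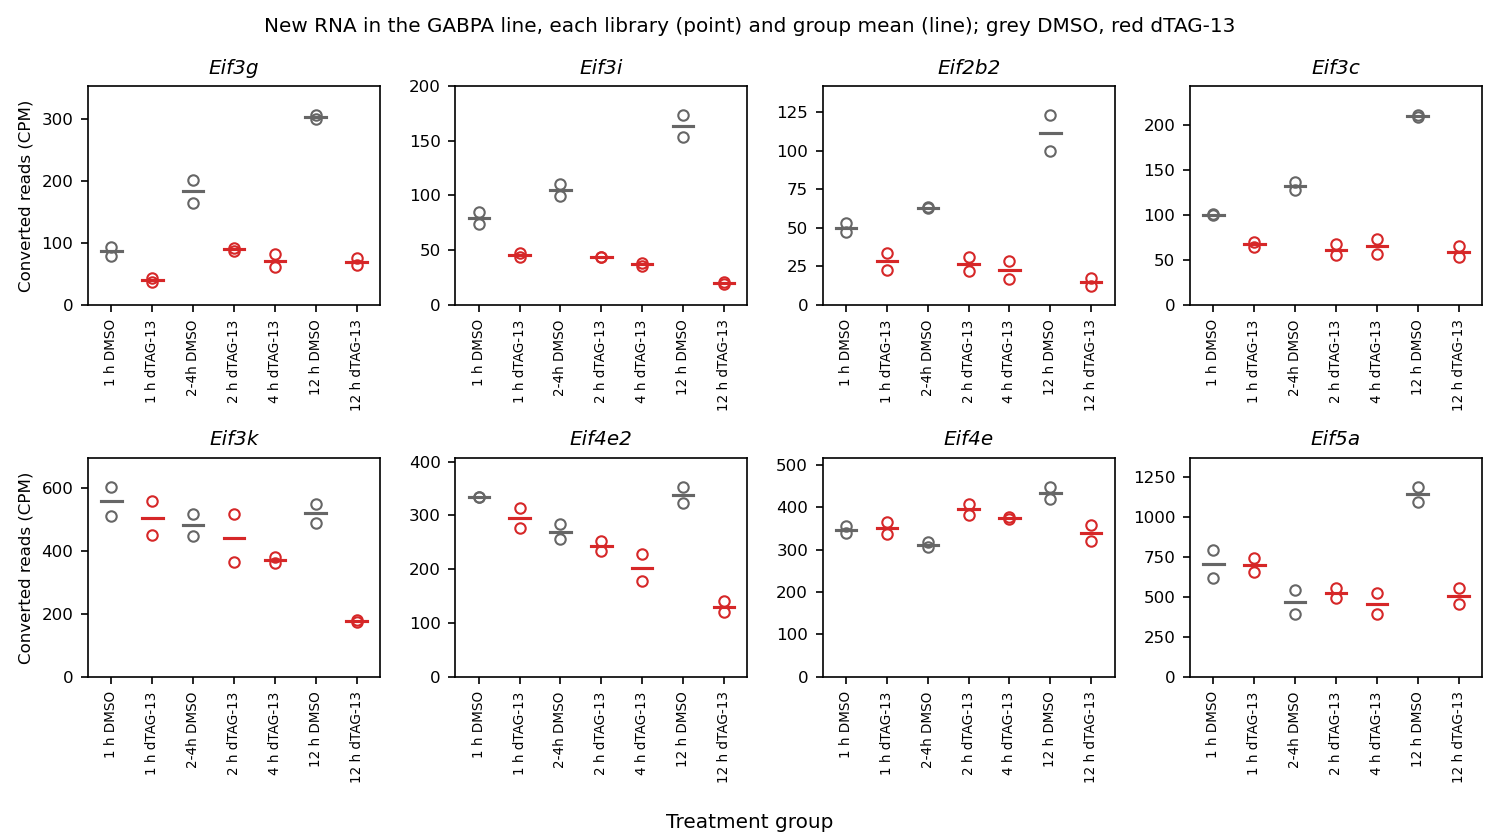
Converted reads in CPM of 8 genes in the 7 SLAM-seq groups of the GABPA line; each point is a library, grey for DMSO and red for dTAG-13, a short line is the group mean of 2, and the 2-4h DMSO group is the control of both the 2 h and the 4 h treatment. Eif3g, Eif3i, Eif2b2 and Eif3c lie below their controls from 1 h on, Eif3k, Eif4e2 and Eif5a clearly at 12 h.

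After 12 h, 20 of the 39 genes fell in new RNA (18.3% of all genes) and 1 rose (12.3%), with a median change of -0.42 against 0.04 over all genes. Of the 8 stem cell markers 3 fell and 2 rose in this comparison, with a summed level of 6488 and 6433 CPM with DMSO and 5054 and 5482 CPM with dTAG-13; their part in the result was not tested. At 1, 2 and 4 h 0 of these 8 were called. All 7 genes of the earlier times were among the 20, and 15 of the 20 were among the 18 that fell in RNA-seq. Over all genes 57.4% of those that fell at 12 h of new RNA also fell in RNA-seq of the GABPA line. Eif3i stood at 153 and 174 CPM with DMSO and 18.5 and 21.0 CPM with dTAG-13, a change of -3.07 ± 0.19 (SE, adjusted p = 2.22e-11) on the log2 scale, and Eif2b2 at 123 and 99.7 CPM with DMSO and 17.3 and 11.9 CPM with dTAG-13, a change of -2.86 ± 0.25 (SE, adjusted p = 5.07e-09). These were the largest falls of the 39. Eif3g stood at 307 and 299 CPM with DMSO and 74.6 and 63.5 CPM with dTAG-13, a change of -2.12 ± 0.18 (SE, adjusted p = 2.25e-09), and Eif3c at 211 and 209 CPM with DMSO and 65.5 and 52.7 CPM with dTAG-13, a change of -1.81 ± 0.17 (SE, adjusted p = 2.33e-08). Eif3m stood at 102 and 96.5 CPM with DMSO and 34.2 and 38.5 CPM with dTAG-13, a change of -1.46 ± 0.20 (SE, adjusted p = 4.28e-06), Eif3l at 322 and 330.2 CPM with DMSO and 135 and 121 CPM with dTAG-13, a change of -1.34 ± 0.17 (SE, adjusted p = 1.15e-06), and Eif1ad at 192 and 195 CPM with DMSO and 78.9 and 70.9 CPM with dTAG-13, a change of -1.36 ± 0.16 (SE, adjusted p = 4.2e-07). The treated libraries of these 7 genes lay below 50% of every control library. In this comparison 13 of the 39 genes fell beyond 2-fold, against 10.8% of all genes.

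Eif3h, Eif3k and Eif4e2 were called at 12 h and at none of the earlier times. Eif3k stood at 549 and 487 CPM with DMSO and 174 and 179.7 CPM with dTAG-13, a change of -1.55 ± 0.17 (SE, adjusted p = 2.27e-07). Before that it stood at 515 and 447 CPM in the 2-4h controls against 515 and 364 CPM at 2 h and 362 and 379 CPM at 4 h, and 604 and 509.9 CPM with DMSO and 449.8 and 557 CPM with dTAG-13 at 1 h. Eif4e2 stood at 354 and 324 CPM with DMSO and 140.3 and 121 CPM with dTAG-13, a change of -1.37 ± 0.16 (SE, adjusted p = 3.73e-07). Its earlier levels were 256 and 284 CPM in the 2-4h controls against 253 and 234 CPM at 2 h and 178 and 228 CPM at 4 h, and 335 and 334 CPM with DMSO and 277 and 314 CPM with dTAG-13 at 1 h. Eif3h stood at 154 and 132 CPM with DMSO and 48.1 and 47.1 CPM with dTAG-13, a change of -1.59 ± 0.18 (SE, adjusted p = 3.59e-07). Earlier Eif3h stood at 89.2 and 84.7 CPM in the 2-4h controls against 54.6 and 69.9 CPM at 2 h and 67.1 and 60.7 CPM at 4 h, and 100.2 and 85.6 CPM with DMSO and 63.7 and 77.8 CPM with dTAG-13 at 1 h. Eif3k libraries overlapped between treatments at 1 h and 2 h, and those of Eif4e2 lay below their controls by a narrow gap. Treated libraries of Eif3h lay below their controls at 1, 2 and 4 h too. Eif3h, Eif3k and Eif4e2 all stood well apart at 12 h. The missing calls at earlier times do not show that new RNA was unchanged. Eif2b1 fell at 12 h from 272 and 232 CPM to 101 and 92.4 CPM, a change of -1.37 ± 0.19 (SE, adjusted p = 6.39e-06), against -0.36 in RNA-seq.

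Eif5a and Eif1a fell in new RNA at 12 h and had smaller changes in RNA-seq. Eif5a, which codes for the hypusine-bearing factor of elongation and termination, stood at 1189 and 1091 CPM with DMSO and 553 and 454 CPM with dTAG-13, a change of -1.18 ± 0.18 (SE, adjusted p = 2.1e-05), against 0.059 in RNA-seq. Eif1a stood at 1233 and 1209 CPM with DMSO and 580.3 and 535 CPM with dTAG-13, a change of -1.13 ± 0.14 (SE, adjusted p = 1.06e-06), against -0.31. Both genes lay apart from their controls by 12 h and had changes of -0.21 to 0.16, none of them called, at 1, 2 and 4 h. Eif3d fell by 0.78 ± 0.17 (SE, adjusted p = 0.000839) from 385 and 343 CPM to 243 and 178 CPM, against 0.011 in RNA-seq. Eif4g3 rose by 0.75 ± 0.21 (SE, adjusted p = 0.00821), from 51.3 and 59.1 CPM to 109 and 73.7 CPM, the direction of its RNA-seq change. Eif2d fell by 0.57 ± 0.21 (SE, adjusted p = 0.046), from 52.2 and 59.1 CPM to 40.7 and 33.5 CPM, and Eif1b fell by 0.70 ± 0.27 (SE, adjusted p = 0.0465), from 49.9 and 56.4 CPM to 38.3 and 24.9 CPM. Eif4a2, which rose in RNA-seq, changed by -0.11 ± 0.14 (SE, adjusted p = 0.584) in new RNA, at 1407 and 1368 CPM with DMSO and 1272 and 1297 CPM with dTAG-13. The difference between the assays was not tested for any gene.

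Of the 6 main factors, Eif5 was called in new RNA. Eif4e stood at 449 and 419.5 CPM with DMSO and 321 and 358 CPM with dTAG-13 at 12 h, a change of -0.36 ± 0.14 (SE, adjusted p = 0.0553) that missed the threshold, and Eif4g1 at 72.1 and 102 CPM with DMSO and 122 and 105 CPM with dTAG-13, a change of 0.39 ± 0.20 (SE, adjusted p = 0.152). Eif4a1 stood at 497 and 478 CPM with DMSO and 464 and 449.6 CPM with dTAG-13, a change of -0.094 ± 0.14 (SE, adjusted p = 0.635), Eif1 at 537 and 629.7 CPM with DMSO and 577 and 631 CPM with dTAG-13, a change of 0.049 ± 0.24 (SE, adjusted p = 0.894), and Eif2b5 at 124 and 119.5 CPM with DMSO and 111 and 84.5 CPM with dTAG-13, a change of -0.30 ± 0.18 (SE, adjusted p = 0.195). None of these 5 was called at any time. Eif5 fell at 12 h from 574 and 532 CPM to 446 and 379 CPM, a change of -0.42 ± 0.15 (SE, adjusted p = 0.0315). At 1, 2 and 4 h their changes lay between -0.45, that of Eif4g1 at 2 h, and 0.34, that of Eif4e at 2 h. A large share of SLAM-seq reads of Eif4a1 (29.0%), Eif2s2 (28.7%), Eif4e (27.3%), Eif4a2 (25.7%), Eif2b3 (21.8%), Eif1 (14.2%) and Eif2s3x (88.0%) mapped to several places, so their new RNA is uncertain; among the 7 eIF3 genes that fell, the share was at most 3.87%.

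Of the 21 calls at 12 h 14 held under each of the 8 alternative settings, without any single library. Eif1b was lost without either DMSO library (adjusted p of 0.129 and 0.219) or dTAG-13 replicate 2 (0.34), and Eif2d without any of the 4 (0.082 to 0.264). Eif2a was lost without DMSO replicate 1 (0.133) or dTAG-13 replicate 1 (0.059), Eif2b4 without DMSO replicate 2 (0.0556) or dTAG-13 replicate 2 (0.0678), and Eif4a3 without DMSO replicate 1 (0.0791). Eif4g3 was lost without DMSO replicate 1 (0.0729) or dTAG-13 replicate 1 (0.16), and Eif5 without either DMSO library (0.248 and 0.0744) or dTAG-13 replicate 2 (0.309). Library totals in place of TMM ended the calls of Eif1b (0.101), Eif2d (0.118) and Eif5 (0.129). DESeq2 size factors (0.0599 and 0.0602), DESeq2 (0.151 and 0.178) and a minimum average level (0.0622 and 0.0588) ended those of Eif1b and Eif2d, as did dropping the filter on low counts for Eif2d (0.0991). All-gene changes at 12 h ran with abundance: the median was 0.20 below 4 log2 CPM, 0.03 at 4 to 6, -0.07 at 6 to 8 and -0.20 above 8, and 27.9% and 34.7% of all genes fell in the upper classes. Of the members 5 of 5 fell at 4 to 6 log2 CPM (20.3% of all genes), 10 of 22 at 6 to 8 and 5 of 12 above 8, against the shares of all genes just given. With library totals the all-gene median moved from 0.04 to 0.18 and the share of rises among calls from 40.2% to 54.2%.

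The 12 h response was tested against the 1 h response. It was lower for 12 of the 39 genes (4.7% of all genes) and higher for 0 (2.14%). At an unadjusted p under 0.05 the comparison gave 17 members of 3605 genes in either direction. Eif3i differed by -2.27 ± 0.29 (SE, adjusted p = 3.47e-05) and Eif2b2 by -2.03 ± 0.39 (SE, adjusted p = 0.00266), Eif3k by -1.41 ± 0.24 (SE, adjusted p = 0.000894), Eif3c by -1.23 ± 0.27 (SE, adjusted p = 0.00623) and Eif4e2 by -1.19 ± 0.22 (SE, adjusted p = 0.00207). The other 7 were Eif1a, Eif1ax, Eif3d, Eif3g, Eif3h, Eif3l and Eif5a, with differences of -0.90 to -1.19. For Eif3m, whose change was -0.89 at 1 h and -1.46 at 12 h, the difference was not called (-0.57 ± 0.31, SE, adjusted p = 0.279). Converted reads were 5.06% to 6.08% of all reads at 1 h and 12.1% to 14.1% at 12 h, and with labelling times not given in the sources used here, time after dTAG-13 and the length of labelling cannot be told apart. Without 1 h DMSO replicate 2 the 12 genes became 7. Eif1ax was lost without 6 of the 8 libraries (adjusted p up to 0.221) and Eif3g without 6 (up to 0.156); library totals also ended both calls (0.0808 and 0.0501), and DESeq2 that of Eif1ax (0.0507). Eif3d, Eif3h and Eif3l were each lost without 3 (up to 0.0707, 0.0749 and 0.122) and Eif5a without 1 h DMSO replicate 2 (0.0534). The libraries concerned were, for Eif3d, 1 h dTAG-13 replicate 2, 12 h DMSO replicate 1 and 12 h dTAG-13 replicate 2, for Eif3h 1 h DMSO replicate 2, 1 h dTAG-13 replicate 2 and 12 h DMSO replicate 1, and for Eif3l 1 h DMSO replicate 2, 1 h dTAG-13 replicate 1 and 12 h dTAG-13 replicate 2.

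The same libraries counted over all reads, converted or not, showed the falls later. With all reads 0 of 40 genes were called at 1 h (0.00371% of all 26957 genes fell) and 0 at 2 h (0.211%) by the same edgeR test, with 0 and 2 at an unadjusted p under 0.05. At 4 h 3 fell (2.1%), Eif1ad, Eif2b2 and Eif3g, and at 12 h 33 fell (27.6%) and 1 rose (29.8%), while 29 were lower at 12 h than at 1 h (20.2%) and 1 was higher (16.1%). Markers moved with it at 12 h: of 8 stem cell markers 4 fell and 1 rose, of 7 feeder fibroblast markers 4 rose, of 8 lineage markers 3 rose and 2 fell, and of 4 two-cell markers 2 rose, and their part in the result was not tested. At 2 h Eif3i changed by 0.0355 with all reads, which was not called, beside the -1.27 of converted reads. Its changes with all reads were -0.24 at 4 h and -2.19 at 12 h. Eif3g changed by -0.066, -0.18, -0.66 and -2.38 at 1, 2, 4 and 12 h, and Eif2b2 by -0.24, -0.52, -1.35 and -3.37. At 12 h all reads also put the change of Eif2b5 at -0.92 and of Eif4e at -0.92, genes at -0.0041 and -0.041 in RNA-seq, and this difference was not tested. With all reads the all-gene median at 12 h was 0.63 below 4 log2 CPM, -0.35 at 4 to 6, -0.71 at 6 to 8 and -0.58 above 8, and 21 of 24 members at 6 to 8 fell against 68.4% of all genes there. This count was added after seeing the data.

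The share of a gene's reads that carried conversions, in the DMSO libraries, is a measure the choice of genes did not use. The median of 39 genes was 4.08% and 5.00% at 1 h, against 5.93% and 6.49% over all genes with at least 100 reads, and 12.3% and 12.2% at 12 h against 16.3% and 16.2%. Among the lowest shares at 1 h were those of Eif3g (1.52% and 1.56%), Eif3l (1.55% and 1.47%), Eif3i (1.60% and 1.73%), Eif3f (1.62% and 2.67%) and Eif3c (1.79% and 2.18%), with Eif2d at 2.24% and 1.94%. Of these 5 eIF3 genes, Eif3f was not called in new RNA and the others fell by 2 h. Low shares were also those of Eif5a (2.14% and 2.17%), Eif1ax (2.42% and 2.09%), Eif3b (2.25% and 2.71%) and Eif2b5 (2.24% and 3.23%). These genes and Eif2d were not called at 1 h or 2 h. The highest were those of Eif4a2 (19.7% and 24.1%), Eif1a (14.9% and 14.7%) and Eif1 (12.5% and 14.8%), and at 12 h Eif1a reached 50.3% and 50.6%. Depth differs between genes, so these are descriptions with no test.

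Other genes of the pathway, on lists that held no member, were counted the same way in RNA-seq of the GABPA line. Of 17 other initiation factors 15 were tested, of which 6 fell and 2 rose, beside the 21.9% and 24.6% of all genes given above, which hold for the next lists too. Mcts1, which codes for a reinitiation factor, fell by 1.45 ± 0.16 (SE, adjusted p = 9.63e-07) on the log2 scale, and with changes of -0.66 and -0.70 in the GABPB1 and GABPB1/GABPB2 lines. Eif6, which keeps the large ribosomal subunit free, fell by 1.3003 ± 0.084 (SE, adjusted p = 1.39e-09), with changes of -0.51 and -0.61 in the GABPB lines, and in new RNA changed by -1.54, -1.18, -1.26 and -2.29 at 1, 2, 4 and 12 h, each of them called. Mcts1 changed in new RNA by -0.68, -0.82, -1.28 and -1.36 at these times, called at 4 h and 12 h. Eif5a2 fell by 0.52 ± 0.15 (SE, adjusted p = 0.00788) and Pabpc1, the polyA-binding protein, rose by 0.50 ± 0.045 (SE, adjusted p = 7.29e-08); neither was called in another comparison with DMSO, where Eif5a2 changed by -0.33 and -0.36 in the GABPB lines and Pabpc1 by 0.022 and 0.071. Eif2s1, the α subunit of eIF2 that is absent from the rule, fell by 0.30 ± 0.073 (SE, adjusted p = 0.00295). It is named after its value was seen.

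Of 25 regulators of initiation, 6 fell and 6 rose. Eif2ak1, the heme-regulated kinase of eIF2, stood at 88.2 and 84.4 CPM with DMSO and 17.0 and 16.4 CPM with dTAG-13, a change of -2.37 ± 0.080 (SE, adjusted p = 4.74e-13), and fell too, with changes of -0.23 and -0.63 in the GABPB1 and GABPB1/GABPB2 lines and with a change of -1.17 in new RNA at 12 h. Its changes of -1.16, -0.83 and -1.13 at 1, 2 and 4 h were not called. Mknk1, a kinase of eIF4E, fell by 0.94 ± 0.12 (SE, adjusted p = 8.33e-06), and was not called elsewhere, with -0.13 and -0.16 in the GABPB lines and -0.48 in new RNA at 12 h. Paip2, a repressor of the polyA-binding protein, fell by 0.84 ± 0.068 (SE, adjusted p = 2.35e-08), with a change of -0.24 in the GABPB1/GABPB2 line, and in new RNA with changes of -0.81 at 1 h and -1.436 at 12 h. Eif4ebp3, a rare repressor of eIF4E, rose by 2.01 ± 0.73 (SE, adjusted p = 0.0329), at only 0.713 and 0.0494 CPM with DMSO and 1.24 and 1.65 CPM with dTAG-13. Of 20 elongation and release factors, 7 fell and 6 rose. Dhps, which makes the hypusine of eIF5A, fell by 1.83 ± 0.088 (SE, adjusted p = 3.08e-11), with changes of -0.43 and -0.76 in the GABPB lines, and in new RNA with changes of -0.84 at 4 h and -1.95 at 12 h. Eef2kmt, a methyltransferase of elongation factor eEF2, fell by 1.37 ± 0.14 (SE, adjusted p = 3.59e-07) and with a change of -2.59 in new RNA at 12 h. Dph6, an enzyme of the diphthamide of eEF2, rose by 0.96 ± 0.11 (SE, adjusted p = 1.15e-06) and with a change of 0.92 in new RNA at 12 h, and Gspt2, a release factor, fell by 0.65 ± 0.14 (SE, adjusted p = 0.000833). Eef2kmt, Dph6 and Gspt2 were not called in the GABPB lines, with changes of -0.28 and -0.28, 0.20 and 0.34, and -0.11 and -0.12. In the GABPB1 line 2 of the other initiation factors, 1 regulator and 1 elongation or release factor fell and 0 rose. In the GABPB1/GABPB2 line 2, 2 and 1 fell, and 2 elongation or release factors rose. In new RNA at 12 h 4, 7 and 8 fell and 2, 3 and 2 rose. Over all genes 5.46% and 9.26% fell in the GABPB lines and 18.3% at 12 h, and 1.28%, 3.53% and 12.3% rose. These lists were drawn up with earlier results of these data known.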

How the data were processed

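Of 92 samples, 26 libraries were used, 12 of RNA-seq and 14 of SLAM-seq. The other 66 were not analysed here: chromatin libraries, and libraries titled PRO from the GABPA line at 1 h of dTAG-13 or DMSO. Per the submitters' processing notes the tools include Trim Galore 0.6.7, STAR 2.7.11a, RSEM 1.3.1 and slamdunk 0.4.3, with build mm39 and no roles stated; strand setting not given in the sources used here. Per the file headers, the authors deposited RSEM expected counts and TPM for RNA-seq, with a posterior SD of the count as a score of ambiguity, and per-gene counts of all reads and of reads with T-to-C conversions for SLAM-seq. Expected counts were rounded to whole numbers.

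Each assay was fitted over all genes and groups with edgeR 4.0.16 (R 4.3.3) by quasi-likelihood, with TMM scaling, filterByExpr with minimum count 10, total 15, and 1 mean per group. Benjamini-Hochberg adjustment ran over all 16396 genes of RNA-seq and 15887 of SLAM-seq, and SE is the log2 change divided by the root of F. CPM are TMM-scaled. SLAM-seq was tested on converted reads. The series describes biological duplicates. The 8 alternative settings were DESeq2 size factors, library totals, DESeq2 1.42.0, no low-count filter, a minimum average of 3 log2 CPM, only the libraries compared, a replicate block, and leaving out each library; counting all reads was added after seeing the data. The fits were tested on simulated data.

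Members and lists were chosen with earlier results of these data known. Values in every library are given for members called in the GABPA line with a log2 change of at least 0.5 in size, for the 10 largest called changes elsewhere, and for Eif4e, Eif4g1, Eif4a1, Eif5, Eif1 and Eif2b5. Of each pathway list the 4 called genes with the largest changes are named. Promoters are RefSeq sequences of GRCm38.p6, another build than that of the counts, and were matched by symbol.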

Additional observations from a re-analysis of the deposited data

Results flagged for a closer look

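In 3 sets, responses differed between groups by a test of the difference itself, the quasi-likelihood test of edgeR adjusted by Benjamini-Hochberg across all genes. The log2 response to dTAG-13 in the GABPA line minus that in the GABPB1 line passed for 13 of the 40 genes (13.3% of all genes were lower), with differences of Eif1ad -0.9999, Eif1b -0.57, Eif2b2 -1.60, Eif2d -0.34, Eif3c -0.67, Eif3g -0.87, Eif3h -0.59, Eif3i -1.19, Eif3k -0.70, Eif3l -0.68, Eif3m -1.06, Eif4a3 -0.24 and Eif4e2 -0.78. The same difference from the GABPB1/GABPB2 line passed for 11 (10.7% of all genes), with Eif1ad -0.70, Eif2b2 -1.31, Eif3c -0.48, Eif3g -0.70, Eif3h -0.48, Eif3i -0.93, Eif3k -0.57, Eif3l -0.64, Eif3m -0.96, Eif4a3 -0.27 and Eif4e2 -0.69. The calls of Eif1b and Eif4a3 against the GABPB1 line were lost when single libraries were left out. All of these are lower responses in the GABPA line, which need not be lower levels, and both sets rest on the same 4 libraries of that line. Eif1ad stood higher there with DMSO, at 107.8 and 101.9 CPM against 55.1 to 64.6 CPM in the other lines. With dTAG-13 it stood at 47.6 and 48.05 CPM against 39.9 to 58.55 CPM. Eif2b2 with dTAG-13 stood at 25.2 and 24.35 CPM against 36.9 to 54.9 CPM. The part of the control levels in these differences was not tested.

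In new RNA the 12 h response minus the 1 h response passed for 12 of 39 genes (4.7% of all genes), with differences of Eif1a -0.92, Eif1ax -0.90, Eif2b2 -2.03, Eif3c -1.23, Eif3d -1.07, Eif3g -1.03, Eif3h -1.19, Eif3i -2.27, Eif3k -1.41, Eif3l -1.04, Eif4e2 -1.19 and Eif5a -1.16. Those of Eif1ax, Eif3d, Eif3g, Eif3h, Eif3l and Eif5a were lost under at least 1 alternative setting. With labelling times not given in the sources used here, the time after dTAG-13 and the length of labelling cannot be told apart.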

How the results depend on the processing

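Of 116 calls of single genes, 79 kept their direction and side of the threshold under all 8 alternative settings and 37 were lost under at least 1. Of the member counts, each taken under each setting, 246 stayed within 1.5 times and 20 did not. With a minimum average level of 3 log2 CPM, the members that rose in RNA-seq of the GABPA line went from 4 to 7. Those with a higher response in the GABPA than the GABPB1 line went from 0 to 5. Those that fell at 1 h of new RNA went from 1 to 2. Leaving out 1 library at a time gave 1 to 2 members that rose and 2 to 4 that fell in the GABPB1 line, 0 to 2 higher in the GABPA than the GABPB1 line and 11 to 18 lower than the GABPB1/GABPB2 line. In new RNA it gave 0 to 1 that fell at 1 h, 2 to 7 at 4 h, 0 to 1 that rose at 12 h, and 7 to 13 with a lower 12 h than 1 h response. An arm of 1 library was then assumed to vary like the other groups. Counting all reads in place of converted reads, chosen after seeing the data, gave 0, 0, 3 and 33 members that fell at 1, 2, 4 and 12 h, and 29 lower and 1 higher at 12 h than at 1 h. With all reads the 2 h change of Eif3i was 0.0355 and not called, and the cause of this difference from converted reads was not tested.

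Over all genes, library totals moved the share of rises from 19.0% to 30.1% in the GABPB1 line, from 40.2% to 54.2% at 12 h of new RNA and from 31.3% to 44.2% between 12 h and 1 h. With only its own libraries the GABPB1 line gave 1240 higher and 1947 lower calls in place of 210 and 896 (38.9% rises), and the GABPB1/GABPB2 line 222 and 1089 in place of 578 and 1519 (16.9% in place of 27.6%). The 2 h comparison then gave 5 and 314 in place of 23 and 510. DESeq2 gave 1093 and 2124 at 12 h of new RNA in place of 1952 and 2905. It gave 216 and 584 between 12 h and 1 h in place of 340 and 747, and at 2 h and 4 h 339 and 451 lower in place of 510 and 621. Without the low-count filter 14 genes were higher and 13 lower at 4 h than at 2 h in place of 0 and 0, and 33, 50 and 49 rose at 1, 2 and 4 h in place of 9, 23 and 18. All reads gave 1, 57 and 566 lower at 1, 2 and 4 h, and 8032 higher and 7449 lower at 12 h.

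Replicate numbers are shared between groups, but nothing says that they mark a shared culture or day. The correlation of deviations of same-numbered libraries was -0.00355, -0.0412 and 0.0335 in the GABPA, GABPB1 and GABPB1/GABPB2 lines and -0.00334, 0.294, 0.128 and 0.0964 at 1, 2, 4 and 12 h. With a replicate block 9 members fell in the GABPB1/GABPB2 line in place of 10. At 4 h of new RNA 8 fell in place of 7. A lower response in the GABPA than the GABPB1/GABPB2 line was called for 12 in place of 11. Other member counts were the same. In the GABPA line 17 of the 18 falls were shared, with Eif2b3 lost and Eif4a1 gained. Groups of 2 libraries, and fewer converted reads than reads in all, limit the precision of new RNA.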

Other observations

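Some members differed in level between the lines already with DMSO, which no comparison above covers and which was not tested. Eif4g3, a scaffold of the eIF4F complex, stood at 90 and 88.8 CPM in the GABPA line, 56.0 and 58.1 CPM in the GABPB1 line and 21.9 and 22.5 CPM in the GABPB1/GABPB2 line. Eif1ax stood at 169.9 and 166 CPM in the GABPA line, 83.5 and 89.8 CPM in the GABPB1 line and 86.3 and 89.7 CPM in the GABPB1/GABPB2 line. Eif4h, a cofactor of the eIF4A helicase, stood at 617 and 600.4 CPM, 354 and 342 CPM, and 287 and 272 CPM in the same order of lines. Eif4a2 went the other way, with 344 and 322 CPM in the GABPA line, 627 and 629 CPM in the GABPB1 line and 671 and 714 CPM in the GABPB1/GABPB2 line. These genes were chosen after their values were seen. The controls of the 3 lines did not overlap for Eif4g3, Eif4h and Eif4a2. The share of all genes with such separate controls was not counted, so it is not known to be particular to these genes. Sources of the differences were not tested. Marker levels differed between these controls too: the summed level of 8 lineage markers was 66.2 and 63.8 CPM in the GABPA line, 15.4 and 15.3 CPM in the GABPB1 line and 40.8 and 37.7 CPM in the GABPB1/GABPB2 line. That of 4 two-cell markers was 3.98 and 3.46 CPM, 0.349 and 0.157 CPM, and 6.53 and 7.01 CPM in the same order.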
